A study of Sus scrofa with 48 samples.

Results

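Interleukins are secreted proteins by which white blood cells signal to each other, and this report describes their transcripts and those of their receptors in pig blood. The members were the spots of the array whose gene name starts with IL and a digit, which gave 90 of the 60306 non-control spots and 52 genes. The normalised table held 54 of these 90 spots, for 32 genes, among 37113 retained spots in all. The other 36 spots have only a raw brightness and a call against background, and they are described at the end. Another 7 spots spelled with a hyphen (IL-1beta, IL-5 and IL-18RA) were outside the naming rule.

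Blood was taken at slaughter, at 132 days of age, from 48 castrated male French Large White pigs of the low RFI and high RFI lines. Residual feed intake (RFI) is the part of feed intake that growth and maintenance do not account for, and the labels call the lines RFIneg (low RFI) and RFIpl (high RFI). Each line was divided between a high-fat, high-fibre diet (HF) and a low-fat, low-fibre diet (LF), with 12 pigs in each of the 4 groups and 1 array per pig. Each direction of selection is 1 line, so that an effect of the selection on feed intake and chance divergence of the 2 lines cannot be told apart. The 6 slides held 8 arrays each, 2 of every group, and were scanned on 3 days. All values below are log2 intensities centred on the median of the array, a line difference is low RFI minus high RFI, and a level is never compared between spots.

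Many interleukins bind a receptor built of a ligand-specific chain and a chain that several receptors share, and most of these receptors pass the signal to Janus kinases and STAT transcription factors. IL10RB is the shared chain that pairs with IL10RA to bind IL10, an anti-inflammatory cytokine, and it also serves the receptors of IL22 and of IL29 (interferon lambda 1). IL2RG is shared by the receptors for IL2, IL4, IL7, IL15 and IL21, IL6ST (gp130) by those for IL6 and IL27, and the IL1 receptor group signals instead through MYD88 and IRAK kinases.

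The array measured each gene with probes of 60 bases. Among the 54 retained probes, 44 had a forward reading frame without a stop codon and 10 had none, and the GC content was 35% to 71.7%, with a median of 43.3%. Only probes with an open frame are printed here, for some of the spots named below. The IL10RB probe is that of the largest line difference.
IL10RB A_72_P441858: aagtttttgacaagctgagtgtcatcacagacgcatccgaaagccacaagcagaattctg
The IL7R probe is one of 3 for that gene, which differed in the same direction.
IL7R A_72_P674582: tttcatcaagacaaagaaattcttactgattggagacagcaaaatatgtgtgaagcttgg
The IL6ST probe is given for the shared chain of the IL6 receptor.
IL6ST A_72_P441793: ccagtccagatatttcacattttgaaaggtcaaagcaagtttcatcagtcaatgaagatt
The 3 IL6R probes are given because only the first passed the criterion for the interaction, and the capitals mark the 45 bases that it shares with the second.
IL6R A_72_P705280: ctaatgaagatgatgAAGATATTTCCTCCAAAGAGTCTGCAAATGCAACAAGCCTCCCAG
IL6R A_72_P035481: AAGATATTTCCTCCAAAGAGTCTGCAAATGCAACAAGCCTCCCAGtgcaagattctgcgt
IL6R A_72_P474892: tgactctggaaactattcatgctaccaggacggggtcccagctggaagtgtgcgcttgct
The IL4R probe is one of a pair that moved in opposite directions from pig to pig.
IL4R A_72_P088511: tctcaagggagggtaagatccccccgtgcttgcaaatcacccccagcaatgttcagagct

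The first comparison asked which interleukin transcripts differed between low RFI and high RFI pigs. IL10RB was underexpressed in low RFI pigs at both of its spots, and these were the 2 of 54 spots called at an adjusted P under 0.05 by limma's moderated test, with adjustment over all 37113 spots. Over all retained spots 2.77% were called, and 1.44% were called in the same direction. At the level of genes, where the spots of a gene were averaged, IL10RB was the 1 gene called of 32, against 3.29% of all 10944 genes. The criterion of the study's methods, an unadjusted P under 0.01 and a fold change (FC) above 1.1, was passed by 4 of 54 spots, against 5.78% of all spots. These were both IL10RB spots, 1 IL10 spot and, in the other direction, 1 IL7R spot.

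Most members had small differences. The line difference was below 0 at 33 of 54 spots (61.1%), against 41.4% of all retained spots. Its median was -0.05 over the member spots and 0.02 over all spots. With the spots of a gene averaged, 15 of 32 genes were below 0 and 17 above, with a median of 0.00, against 0.03 over all genes. At an unadjusted P under 0.05, 16 of 54 member spots passed (13 lower and 3 higher in low RFI pigs), against 12.0% of all spots. Several of the 16 spots measured the same gene, so that they are not independent. Of the 25 ligand spots, 18 were below 0. The 8 that passed this P were all lower in low RFI pigs, and they measured IL10, IL1A, IL1B and IL7. Of the 26 receptor spots, 13 were below 0 and 13 above, and of the 7 that passed this P, 4 were lower.

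**Figure D1:**
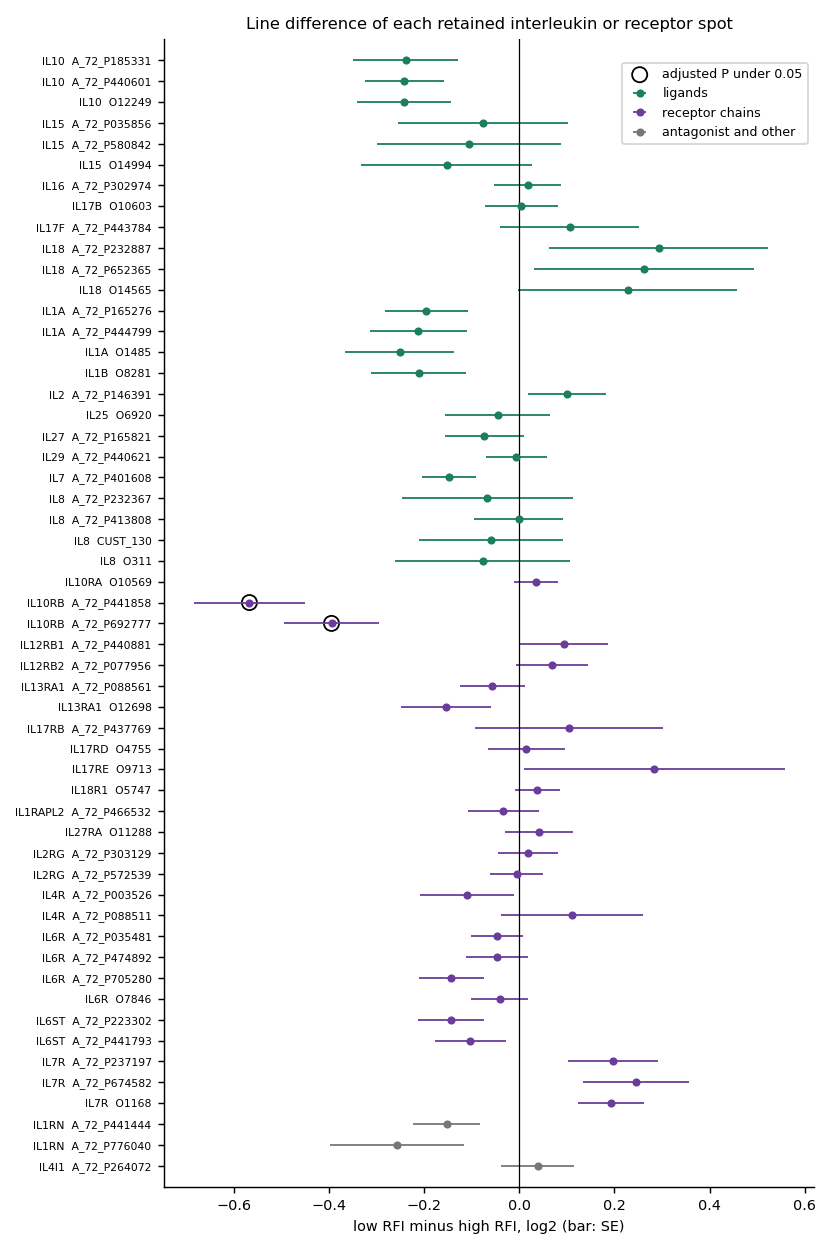
Line difference (low RFI minus high RFI, log2, x axis) of the 54 retained spots, grouped by role, with bars for the SE. Circles mark the 2 IL10RB spots called at an adjusted P under 0.05, which lie at -0.57 and -0.39, and the IL7R and IL18 spots lie on the other side of 0.

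IL10RB had the largest line difference of the 54 retained spots. At A_72_P441858 its level in low RFI pigs ran from -0.43 to 1.47 with the HF diet (median 0.30) and from -0.11 to 1.43 with the LF diet (median 0.37). In high RFI pigs it ran from 0.55 to 2.12 with the HF diet (median 0.93) and from 0.26 to 1.35 with the LF diet (median 0.99). The lines overlapped, but 21 of 24 low RFI pigs were below the median of the high RFI pigs, and 7 were below every high RFI pig. The line difference was -0.57 ± 0.12 (SE, n = 24 pigs per line), an FC of -1.48, with an adjusted P of 0.0019 by limma.

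The other IL10RB spot, A_72_P692777, gave the same order of the lines. Its level had a median of 0.24 in low RFI pigs (range -0.26 to 1.34) and of 0.68 in high RFI pigs (range 0.05 to 1.71). Again 21 of 24 low RFI pigs were below the high RFI median. The difference was -0.39 ± 0.10 (SE), an FC of -1.31, with an adjusted P of 0.016 by limma. Averaged over both spots, the gene differed by -0.48 ± 0.10 (SE), with an adjusted P of 0.0040.

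The IL10RB difference was present on both diets and on most slides. At A_72_P441858 it was -0.71 ± 0.17 (SE) among pigs fed HF, with an adjusted P of 0.024, and -0.43 ± 0.17 among pigs fed LF, with an adjusted P of 0.41. The interaction of line and diet was -0.28 ± 0.23 (SE), with an unadjusted P of 0.23 by limma. Within the 6 slides the difference was below 0 on 5 and 0.03 on the other, with a lowest value of -1.03. Within the 3 scan days it was -0.78, -0.41 and -0.24. The spot A_72_P692777 differed by -0.43 with HF and -0.35 with LF, with adjusted P of 0.18 and 0.44, and was likewise below 0 on 5 slides and at 0.24 on the other. Since whole blood is a mixture, fewer cells of a type that carries a transcript and less of the transcript per cell cannot be told apart here.

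IL10, the ligand of the receptor that IL10RB completes, was lower on average in low RFI pigs at each of its 3 spots, without a call after adjustment. At A_72_P440601 the low RFI pigs ran from -1.86 to -0.80 (median -1.30) and the high RFI pigs from -1.39 to -0.05 (median -1.12). The lines overlapped, with 18 of 24 low RFI pigs below the high RFI median. The difference was -0.24 ± 0.08 (SE), an FC of -1.18, with an unadjusted P of 0.0058 and an adjusted P of 0.12 by limma. It was below 0 on all 6 slides. With normexp and quantile normalization it was -0.21 with a P of 0.013, which misses the criterion. The spots A_72_P185331 and O12249 both differed by -0.24, with unadjusted P of 0.036 and 0.017.

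IL10RA, the chain that binds IL10 itself, had a line difference of 0.03 ± 0.05 (SE) and an adjusted P of 0.93 by limma. Its levels had medians of -0.48 in low RFI and -0.49 in high RFI pigs, and the lines overlapped over most of their range. IL29, another ligand whose receptor contains IL10RB, differed by -0.01 ± 0.06 (SE), and IL22 was not in the normalised table. Thus of the retained genes of this receptor group only IL10RB was called in the fit over all genes. Whether its difference exceeds that of IL10 or IL10RA was not tested.

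**Figure D2:**
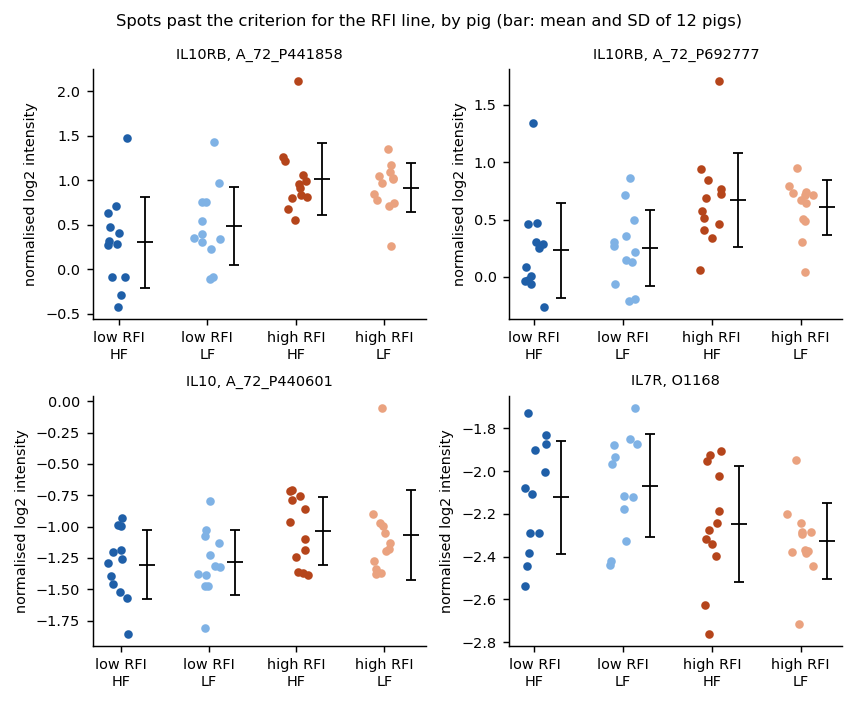
Normalised log2 intensity (y axis) of the 4 spots past the criterion for the RFI line, 1 point for each of 12 pigs per group, with the mean and SD beside them. Both IL10RB spots and the IL10 spot sit lower in the low RFI groups and the IL7R spot sits higher, and the groups overlap in every panel.

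IL7R, the receptor chain for IL7 and a marker of naive and memory T cells, was the one receptor with a difference in the other direction past the criterion of the methods. At O1168 the level ran from -2.54 to -1.70 in low RFI pigs (median -2.09) and from -2.76 to -1.91 in high RFI pigs (median -2.29). Here 18 of 24 low RFI pigs were above the high RFI median, and the lines overlapped. The difference was 0.19 ± 0.07 (SE), an FC of 1.14, with an unadjusted P of 0.0083 and an adjusted P of 0.15 by limma. O1168 was well above background on all 48 arrays but dim, with a median pixel intensity of 77.5 and a local background of 31.

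The other IL7R spots differed by 0.20 ± 0.09 (A_72_P237197) and 0.25 ± 0.11 (A_72_P674582), with unadjusted P of 0.043 and 0.031. At O1168 the difference was above 0 within all 6 slides (0.08 to 0.29). With the slide as a block in the fit, its adjusted P was 0.017, and that of the IL7R gene value was 0.033 for a difference of 0.21. With the scan day as a block these were 0.020 and 0.034. With the replicate number as a block they were 0.013 and 0.031. The call of IL7R after adjustment therefore rests on whether the slide, scan day or replicate number is in the model. At O1168 the difference was 0.31 with background-corrected intensities and 0.14 with normexp and quantile normalization, and the spot left the criterion of the methods with the latter and with scaling to the 75th percentile.

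IL7, the ligand of IL7R, was measured by 1 retained spot. Its median was -1.63 in low RFI pigs (range -2.03 to -1.25) and -1.49 in high RFI pigs (range -1.90 to -1.19), and 19 of 24 low RFI pigs were below the high RFI median. The difference of -0.15 ± 0.06 (SE) had an unadjusted P of 0.012 and an adjusted P of 0.19 by limma. It was below 0 on 4 of 6 slides and 2 of 3 scan days, and with background-corrected intensities it passed the criterion of the methods at -0.22 and -0.23 (P = 0.0043 and 0.0026). IL2RG, which pairs with IL7R, differed by 0.02 ± 0.06 and -0.01 ± 0.06 (SE) at its 2 retained spots.

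The inflammatory ligands IL1A and IL1B had values lower in low RFI pigs, with no call after adjustment. IL1A differed by -0.20, -0.21 and -0.25 at its 3 spots, with unadjusted P of 0.029, 0.043 and 0.032 by limma. IL1B differed by -0.21 ± 0.10 (SE), with an unadjusted P of 0.040 and an adjusted P of 0.37, and 19 of 24 low RFI pigs were below the high RFI median. Its level had a median of -1.12 in low RFI pigs (range -1.77 to -0.12) and of -0.89 in high RFI pigs (range -1.47 to -0.27).

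IL1RN, the antagonist that occupies the IL1 receptor without signalling, differed by -0.15 ± 0.07 at A_72_P441444 and by -0.26 ± 0.14 (SE) at A_72_P776040, with unadjusted P of 0.037 and 0.074. At the first spot the medians were -0.97 in low RFI pigs (range -1.34 to -0.37) and -0.85 in high RFI pigs (range -1.33 to -0.23). The agonists IL1A and IL1B and their antagonist thus all had differences below 0, between -0.26 and -0.15. IL18, another member of this group, had the opposite sign, with differences of 0.23 to 0.29 and SE of 0.23, so that its 3 spots did not separate the lines (unadjusted P of 0.21 to 0.33). IL18R1, its receptor chain, differed by 0.04 ± 0.05.

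IL6R, the ligand-binding chain of the IL6 receptor, gave the 1 member spot of 54 with an interaction P under 0.01, against 0.264% of all retained spots. At A_72_P705280 the level of pigs fed HF ran from -2.12 to -1.38 in the low RFI line (median -1.91) and from -2.07 to -1.05 in the high RFI line (median -1.52). With the LF diet it ran from -2.0 to -1.50 in low RFI pigs (median -1.71) and from -2.21 to -1.41 in high RFI pigs (median -1.71). The medians thus differed between lines with the HF diet and were nearly equal with the LF diet, and the groups overlapped on both. The spot was dim, with a median pixel intensity of 110 and a local background of 34.

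The line difference at this spot was -0.33 ± 0.10 (SE, n = 12 per group) with HF and 0.04 ± 0.10 with LF. The interaction was -0.37, with a P of 0.0086 and an adjusted P of 0.90 by limma, so that it was not called after adjustment. It also left the criterion (P = 0.011) when high RFI HF replicate 1, whose values were rebuilt from its scanner file, was left out, with background-corrected intensities (P = 0.032 and 0.037) and with normexp and quantile normalization, where it was -0.24 (P = 0.090). The probe A_72_P035481, which shares 45 of its 60 bases, gave an interaction of -0.14 (P = 0.22), and O7846, with the same 60 bases as A_72_P035481, gave -0.12 (P = 0.34). The fourth spot, A_72_P474892, gave -0.23 (P = 0.087). All 4 values were below 0, and averaged over its spots IL6R had a line difference of -0.07 ± 0.06 (SE) with an adjusted P of 0.74.

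**Figure D3:**
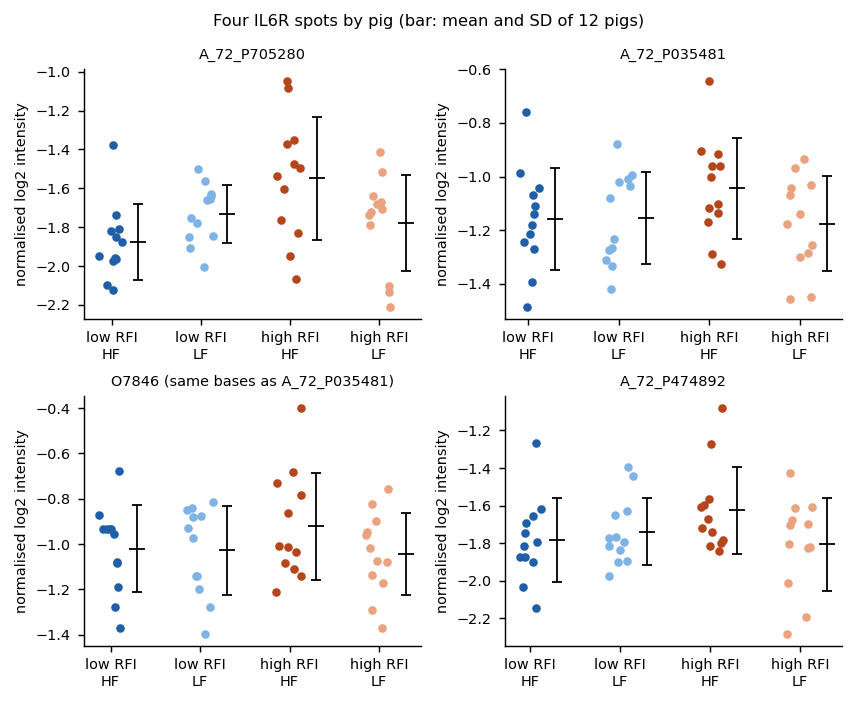
Normalised log2 intensity (y axis, scaled separately) of the 4 IL6R spots by group, 1 point for each of 12 pigs, with the mean and SD. At A_72_P705280 the high RFI pigs fed HF lie highest on average, and at the other 3 spots the group means lie closer together.

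At the 2 retained spots that the scanner files name IL6ST, for the signal-transducing chain that IL6R recruits, the lines differed by -0.14 ± 0.07 at A_72_P223302 and by -0.10 ± 0.07 (SE) at A_72_P441793, with unadjusted P of 0.044 and 0.17 and no call after adjustment. Spots under other names were not used for this gene. The study lists IL6ST among the genes overexpressed in low RFI pigs, and which spot gave that value was not worked out here. At A_72_P223302 the medians were -0.16 in low RFI pigs (range -0.58 to 0.27) and -0.06 in high RFI pigs (range -0.56 to 0.49). IL27RA, which pairs with IL6ST to bind IL27, differed by 0.04 ± 0.07, and IL27 itself by -0.07 ± 0.08. No member of this receptor group was called for the line at an adjusted P under 0.05.

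The remaining receptor chains had line differences within 2 SE of 0. IL12RB1 and IL12RB2, the chains of the IL12 receptor on T and NK cells, differed by 0.09 ± 0.09 and 0.07 ± 0.08 (SE). IL13RA1, which forms a receptor for IL4 and IL13 with IL4R, differed by -0.06 ± 0.07 and -0.15 ± 0.10. Among the ligands, IL15 differed by -0.08 to -0.15, the neutrophil chemoattractant IL8 by 0.00 to -0.08 over 4 spots, and IL16, a chemoattractant for CD4 cells, by 0.02. IL2 differed by 0.10, IL17F by 0.11, IL17B by 0.00 and IL25 by -0.05. IL4I1, an amino acid oxidase named for its induction by IL4, differed by 0.04 ± 0.08.

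The sign of the line difference varied with the diet over the family. Among pigs fed HF, 39 of 54 spots were lower in the low RFI line, and the median difference was -0.09, against 0.00 over all spots. Among pigs fed LF, 23 of 54 were lower, and the median was 0.02, against 0.01 over all spots. The interaction was below 0 at 41 of 54 member spots (75.9%) and at 47.85% of all spots. Only the IL6R spot passed an interaction P under 0.01, and the lowest adjusted interaction P of a member was 0.90, so that the pattern is a description of these 48 pigs.

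The second comparison asked whether the diet changed these transcripts. By limma 0 of the 37113 retained spots were called for the diet at an adjusted P under 0.05. No member spot passed the criterion of the methods, which 0.245% of all spots passed. At an unadjusted P under 0.05 limma's test and the analysis of variance both passed 0 of 54, while limma passed 1.64% of all spots. The lowest P of a member was 0.057, for IL1A at O1485. Its median was -1.11 in pigs fed HF (range -1.78 to 0.03) and -1.23 in pigs fed LF (range -2.08 to -0.72), and the difference was 0.22 with an adjusted P of 1.0.

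Some members varied far more between pigs than between groups. The median within-group SD was 0.33 over the member spots and 0.26 over all retained spots. At IL18, which inflammasomes release as a mature cytokine, the level at A_72_P232887 spanned a 10.2-fold range among the 48 pigs, from 1.79 to 5.14, and its within-group SD of 0.83 exceeded 98.2% of all spots. The 3 IL18 spots followed each other from pig to pig. IL15, a growth factor of NK and memory T cells, spanned 9.89-fold at A_72_P580842, from -1.10 to 2.20, with an SD of 0.69. At the other extreme IL10RA spanned 1.63-fold, and its SD was above that of only 1.90% of all spots.

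IL17RE, the receptor chain for IL17C, stood at 4.91 in low RFI LF replicate 5 and between -1.95 and 0.07 in the other 47 pigs. The gap to the next pig was 28.7-fold. The raw median pixel intensity was 13390 in this pig and at most 335 in the others. The line difference of IL17RE was 0.28 ± 0.27 (SE) with this pig and 0.05 without it, a choice made after the values were seen. The same pig exceeded the next by over 2 on the log2 scale at 8 of the 37113 spots, against a median of 2.5 spots per pig and a highest count of 38.

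**Figure D4:**
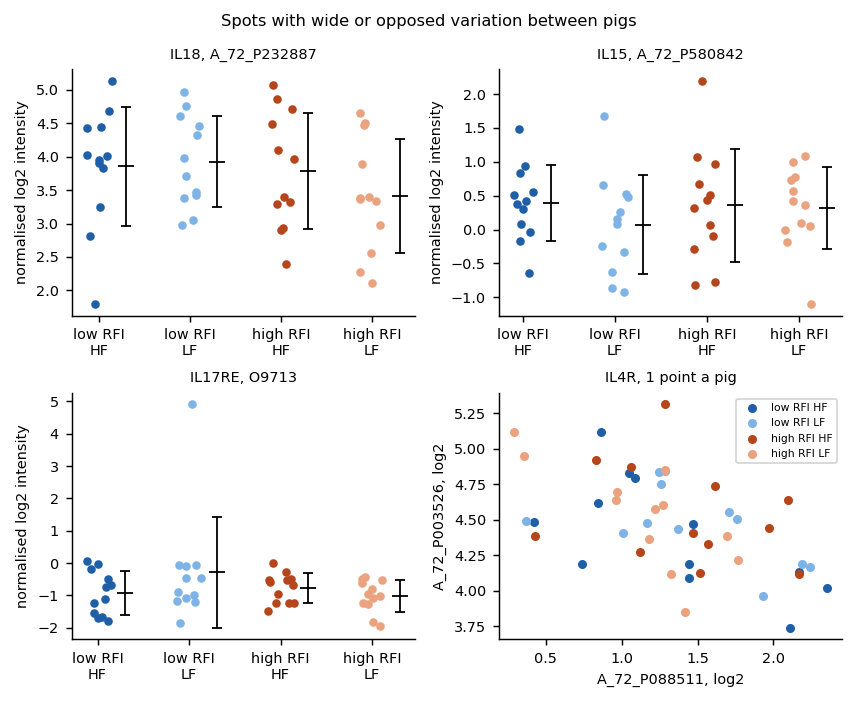
Normalised log2 intensity of IL18, IL15 and IL17RE by group, with the mean and SD of 12 pigs, and the 2 IL4R spots against each other, 1 point per pig. One low RFI LF pig lies at 4.91 for IL17RE, and the IL4R points fall from upper left to lower right.

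Spots of the same gene were compared as an internal check, on the deviation of each of the 48 pigs from its group mean. There were 33 pairs over 13 genes. Pearson's r was above 0.5 in 31 pairs, with a median of 0.84. In the pairs IL6R A_72_P035481 with O7846 (r = 0.79) and IL8 A_72_P232367 with O311 (r = 0.98), both spots carry the same bases. IL6R A_72_P705280 shares 45 bases with both IL6R spots of that pair. For the IL10RB pair r was 0.86 and Spearman's rho 0.75, with a permutation P of 1e-05 for each (1.2e-05 and 1.1e-05 after adjustment over the 33 pairs), the smallest that 100000 permutations can give. Without the 2 pigs farthest from the median, r was 0.78.

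IL4R, the chain shared by the IL4 and IL13 receptors, was the 1 gene with a negative pair. Its spots A_72_P088511 and A_72_P003526 gave r = -0.55 and rho = -0.58, with permutation P of 4e-05 and 1e-05 (4.1e-05 and 1.1e-05 after adjustment), and r = -0.56 without the 2 farthest pigs. The first ran from 0.29 to 2.35 and the second from 3.74 to 5.31. Their line differences were 0.11 ± 0.15 and -0.11 ± 0.10 (SE), so that the mean of the gene, 0.00 ± 0.06, hides opposed values. The IL13RA1 pair had the lowest positive r, 0.37, with a permutation P of 0.00995.

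Another 25 spots carried the same 60 bases as a member under another name. These gave 16 pairs in the normalised table, over 14 genes. The line difference of a member and of its copy differed by at most 0.05, and r between them was 0.46 to 0.99, with a median of 0.94. The copy of IL1RN A_72_P441444 had a line difference of -0.20 with an unadjusted P of 0.0077, against -0.15 and 0.037 at the member, and the copies of IL10 A_72_P185331 and IL1A O1485 were at -0.27 (P = 0.018) and -0.29 (P = 0.014). None of these 3 copies had an adjusted P under 0.05. The copy of IL4R A_72_P088511 differed by 0.10, against 0.11 at the member.

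The signalling genes below the receptors were taken from a list of 36 kinases, STATs, inhibitors and adaptors, of which 33 were measured. STAT3, which the IL6 and IL10 receptors activate, was underexpressed in low RFI pigs, with a line difference of -0.21 ± 0.05 (SE) and an adjusted P of 0.0076 over all genes by limma. TRAF6, an adaptor of the IL1 receptor and IL17 receptor pathways, was overexpressed at its 1 spot. The difference was 1.06 ± 0.18, with an adjusted P of 2.2e-04 by limma. By quantitative PCR in the study, TRAF6 did not differ significantly between the lines at this age. STAT3 and TRAF6 were the only 2 of 33 called (6.1%), against 3.29% of all genes. The median difference of the measured genes was -0.01, against 0.03 over all genes. SOCS3, an inhibitor that STAT3 induces, differed by -0.24 ± 0.09 (SE), with an adjusted P of 0.18.

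The gene values of the Janus kinases, MYD88 and the IRAK kinases were not called, although 1 of the 3 JAK2 spots was called, with the 3 spots between -0.37 and 0.09. Of 15 receptor chains and cytokines of these pathways with other names, CSF2RB and LIF were measured, and they differed by 0.07 ± 0.13 and 0.03 ± 0.11 (SE). The 4 STAT3 spots differed by -0.47 to -0.02, and 2 of them were called.

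Markers of blood cell types moved with the line in part. The marker calls use an adjusted P under 0.05, which 3.29% of all genes passed for the line. Of the B cell list 6 of 8 genes were measured, with 5 below 0 and 1 above. Of these, 3 were called as underexpressed in low RFI pigs, MS4A1 and BLNK among them. The mean B cell level, the mean log2 value of the measured genes of the list, was 0.73 to 1.87 in low RFI and 1.20 to 1.70 in high RFI pigs, and 20 of 24 low RFI pigs were below the high RFI median. Of the T cell list 9 of 10 were measured, with 8 above 0 and 1 below, and 1, LCK, was called as overexpressed. The mean T cell level was 1.59 to 2.12 in low RFI and 1.44 to 2.44 in high RFI pigs. Here 3 of 24 low RFI pigs were below the high RFI median.

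CD14 was underexpressed in low RFI pigs among 7 of 8 monocyte genes measured, and CXCR2 among 8 of 9 neutrophil genes, while 3 measured genes of each list were above 0. The mean monocyte level was -0.30 to 0.83 in low RFI (median 0.33) and -0.14 to 0.99 in high RFI pigs (median 0.30), with 11 of 24 low RFI pigs below the high RFI median. The mean neutrophil level was 2.17 to 4.54 (median 3.16) and 2.49 to 4.97 (median 3.45), with 15 of 24 below. Of the erythroid list 7 of 12 were measured, all 7 were above 0 and SLC4A1 was overexpressed, and the median of the mean level was 4.07 in low RFI and 4.11 in high RFI pigs. Of the eosinophil and basophil list 4 of 8 were measured and CCR3 was overexpressed, with medians of 0.94 and 0.89. No gene was called among 6 of 8 NK and cytotoxic or 4 of 8 platelet genes. The part of these marker levels in the IL10RB, IL10, IL7R and IL1 differences was not tested.

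The 36 spots outside the normalised table covered 20 genes without any retained spot, among them IL4, IL13, IL17A and IL22, which are effector cytokines of helper T cells, and IL6, IL12A and IL12B. The scanner called 9 of the spots well above background on 0 arrays and another 21 on 1 to 12 of the 48 arrays. The 4 spots of IL13RA2, a decoy receptor, were among the 9. IL1B A_72_P441479 and IL2RG O11499 were well above background on all 48 arrays, with median pixel intensities of 1900 and 739, and IL3RA followed with 32 arrays and IL1RL1 with 23.

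IL6 O101 had the most uneven split between lines of the 36 spots. It was well above background in 2 of 24 low RFI pigs and 15 of 24 high RFI pigs, with a two-sided Fisher's exact P of 0.000179 and an adjusted P of 0.40 over the 23193 spots outside the table. This was 1 of 36 member spots at an unadjusted P under 0.05, which 1.49% of all those spots passed. The count was higher in the high RFI line on 5 of 6 slides and lower on 1. The pixel intensities lay close to background in both lines, with medians of 46 (range 34 to 88) and 48 (range 36.5 to 127). The IL6 spots A_72_P177826, A_72_P537633 and A_72_P680394 were above background in 3, 5 and 0 low RFI and 9, 4 and 0 high RFI pigs.

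For the diet, IL1RL1, the receptor of IL33, was above background in 7 of 24 pigs fed HF and 16 of 24 fed LF, with a Fisher's exact P of 0.020 and an adjusted P of 1.0. This was again 1 of 36 spots, against 0.517% of all spots outside the table. At this signal the scanner calls give presence or absence above background and no fold change.

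**Figure D5:**
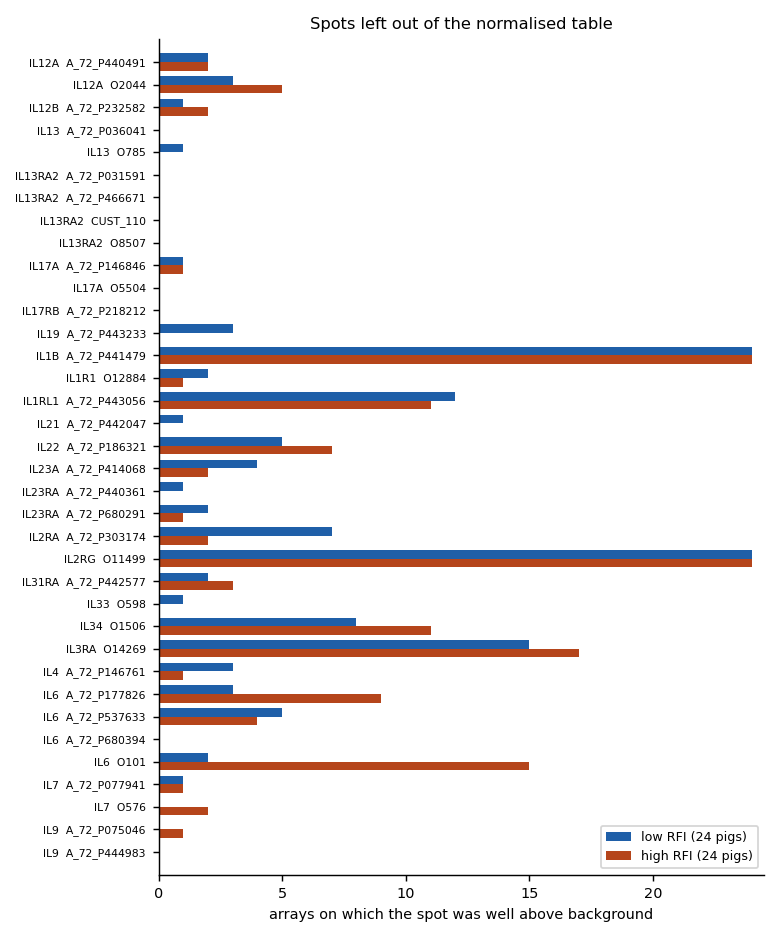
Number of arrays (x axis, of 24 per line) on which each of the 36 spots outside the normalised table was well above background, for low RFI and high RFI pigs. IL1B and IL2RG reach 24 in both lines, and IL6 O101 shows 2 low RFI and 15 high RFI pigs.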

How the data were processed

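RNA from the whole blood of 48 pigs was hybridized on single-colour Agilent porcine arrays. The deposited scanner files hold, per spot, the intensity (median, mean and background-corrected), the local background and other quality calls, which the authors obtained with Feature Extraction. The authors deposited log2 values for 37113 spots after a quality filtration whose thresholds are not given in the sources used here. On 47 arrays these log2 values equalled the log2 median pixel intensity minus the array median, within 0.000001, with no background subtracted. The column of high RFI HF replicate 1 held 1 repeated value in 37090 entries and was rebuilt from its scanner file. The submitters' processing notes name R 3.0.2.

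Gene names are those of the scanner files. A gene value is the mean of its retained spots (10944 genes). A model with 4 group means was fitted with limma 3.58.1 in R 4.3.3, with Benjamini-Hochberg adjustment over all spots or genes. The line effect is the mean of the line differences on both diets. Thresholds were an adjusted P of 0.05, or P of 0.01 with FC of 1.1. Tables were made in Python 3.11.15 (pandas 2.3.3, numpy 2.4.6), exact and permutation tests with scipy 1.17.1 and plots with matplotlib 3.10.9. The fit was tested on simulated data. Signal over local background was 5.91 to 16.0 per array, and no member spot was saturated. The number of arrays limits the precision.

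Spots were named in the text when they passed a criterion for line, diet or interaction, when the study names the gene (IL10, IL10RB, IL1RN, IL6ST and IL6R), when spots of a gene had opposite signs, or when they are receptor partners of these. The members, the signalling list and the marker lists were chosen with earlier results of these data known, and some genes of these lists are not reported here. IL18, IL15, IL17RE, IL4R, IL1A, IL1B, IL6 and IL1RL1 were singled out after their values were seen, and other members are given briefly by their line difference. Alternatives were the analysis of variance, background-corrected intensities scaled to the array median or the 75th percentile, normexp (offset 50) with quantile normalization, all non-control spots, only spots well above background on every array, slide, scan day or replicate number as a block, a trended robust prior, no FC criterion, the brightest spot per gene, the column as deposited, and leaving out the rebuilt pig.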

Additional observations from a re-analysis of the deposited data

Results flagged for a closer look

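The IL6R spot A_72_P705280 had line differences that differed between the diets, with an interaction of -0.37 on the log2 scale, a P of 0.0086 and an adjusted P of 0.90 by limma. The IL1B spot A_72_P441479 and the IL2RG spot O11499 carried signal although they were left out of the normalised table, with median pixel intensities of 1900 and 739 against a local background of 33 and 31.5, on 48 of 48 arrays.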

How the results depend on the processing

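Among the alternatives, IL10RB was called at both spots except with the column as deposited, where 1 member spot was called for the line, 2 passed the criterion of the methods, 0 passed for the interaction and 1 signalling gene was called. Over the other settings A_72_P441858 ranged from -0.61 to -0.55 and A_72_P692777 from -0.43 to -0.36. The criterion for the line was passed by 2 spots with normexp and quantile normalization and by 7 with the slide as a block, which added the other IL7R spots and 1 IL1RN spot. With the scan day as a block it was passed by 6 spots, and with the replicate block by 8. The deviations of same-numbered pigs correlated at r from -0.60 to 0.71 (median 0.20), against medians of -0.01 for other numbers on the same slide and -0.05 across slides. For those other pairs r ran from -0.71 to 0.74 and from -0.81 to 0.76. No label says what a number marks, and the main fit treated the pigs as unpaired and held no block. The gene count was 2 (IL10RB and IL7R) with the slide, the scan day or the replicate block. The interaction count was 0 with both background-corrected scalings, with normexp and quantile normalization, and without the rebuilt pig. The signs reversed within slide 2 for IL10RB A_72_P441858 (0.027) and A_72_P692777 (0.24), and with the column as deposited for IL7R O1168 (-0.00087). With that column the median of all spots moved to -0.10 from 0.02, and 44 of 54 member spots were below 0, against 32 to 34 in the other settings. Without the rebuilt pig, 1 member spot had a diet P under 0.05 (lowest 0.045), and 1 also did with the column as deposited (lowest 0.041). Low signal limits the spots outside the normalised table other than IL1B A_72_P441479 and IL2RG O11499. Signal was also low at retained spots such as IL7R O1168 and IL6R A_72_P705280, with median pixel intensities of 77.5 and 110. Their local backgrounds were 31 and 34.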
